A study of Homo sapiens with 5 samples.

Results

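The HOX cluster genes were examined as a family in RNA-seq libraries of TOV21G cells. The members were the protein-coding genes of the 4 HOX clusters that were matched to the count table by Ensembl identifier, 38 genes in all. Of these, 36 had a row among the 30476 genes of the table, and HOXB1 and HOXD12 had no row in the table used here. The table held 10 members of HOXA (chr7:27139973-27239710, minus strand), 9 of HOXB (chr17:46605888-46806112, minus strand), 9 of HOXC (chr12:54332615-54449814, plus strand) and 8 of HOXD (chr2:176957449-177055635, plus strand), with positions on GRCh37.

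HOX genes encode homeodomain transcription factors that give cells their position along the head-to-tail axis of the embryo. Within each cluster the genes lie in the order in which they are used along that axis, from anterior to posterior, and adult cells often keep the HOX pattern of the place they came from. In the female reproductive tract, HOXA9, HOXA10, HOXA11 and HOXA13 pattern the Müllerian duct in this way. The clusters are classical targets of Polycomb repressive complex 2 (PRC2), whose catalytic subunit EZH2 methylates histone H3 at lysine 27, and the compound GSK126 inhibits that enzyme.

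TOV21G is an established line of ovarian clear cell carcinoma, and the study describes it as carrying a mutated ARID1A gene, a subunit of the SWI/SNF chromatin remodeller. EZH2 inhibitor-resistant (EIR) cells had been selected from it by stepping GSK126 up through 5, 10, 15 and 20 uM and then picking clones. The 5 libraries were 1 of parental cells, which were not treated, and 4 of EIR cells, namely clone 3 and clone 4, each profiled once without GSK126 and once with it. For the treated cultures, neither how much GSK126 was used nor for how long is stated in the labels. Each EIR line is 1 clone, and nothing in the labels says that parental cells were cloned.

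Total counts ranged from 25479238 to 30764963 per library. Because parental cells had 1 library, every difference from parental cells was set against the spread between EIR libraries only, and nothing in the labels says whether the libraries of a clone came from separate cultures, so p-values may measure technical spread. On the list used for clear cell carcinoma, PAX8 held 3083 to 4523 normalized counts in the 5 libraries and KRT18 11981 to 18326. ARID1A, also on that list, held 298 to 708. The study states that ARID1A mutation typically leads to loss of the protein in this tumour, so its transcript is no marker of identity. KRT7 held 81.6 in parental cells and 159 to 194 in EIR cells. It rose by 1.11 ± 0.33 on the log2 scale (SE, DESeq2 adjusted p = 0.0048), while edgeR called 0 of the 6 listed genes with a row. NAPSA was low, at 2.01 in parental cells, 49.1 and 49.4 in clone 3 and 6.10 and 4.23 in clone 4. EPCAM held 394 to 492 normalized counts in parental and clone 3 cells but 0 and 1.06 in the clone 4 libraries. Markers of fibroblasts, immune cells and endothelium were below 100 normalized counts in every library, at 0 to 4.94 normalized counts for LUM, 10.2 to 49.4 for DCN, 13.2 to 91.7 for COL1A1, 2.01 to 14.8 for PTPRC, 36.3 to 87.5 for CD68 and 2.01 to 16.9 for VWF. The upper of these values are of the size of the HOXD3 and HOXD9 levels given below, and their part in the HOX values was not tested. In bulk libraries, fewer cells with a transcript and less of it per cell cannot be told apart.

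For HOXA10, HOXD10 and HOXD11, whose levels are described most closely, the 200 bases before the annotated transcription start are shown, because CG dinucleotides mark the kind of promoter that PRC2 is known to occupy. They were read from GRCh37, 5′ to 3′ on the strand of the gene, with each CG in capitals. The coordinates are chr7:27213940-27214139 on the minus strand for HOXA10, chr2:176981306-176981505 on the plus strand for HOXD10 and chr2:176971808-176972007 on the plus strand for HOXD11. The start used is that of the canonical transcript. For each of these genes it lies inside the annotated span of the gene, so no window lies before the whole gene.
HOXA10: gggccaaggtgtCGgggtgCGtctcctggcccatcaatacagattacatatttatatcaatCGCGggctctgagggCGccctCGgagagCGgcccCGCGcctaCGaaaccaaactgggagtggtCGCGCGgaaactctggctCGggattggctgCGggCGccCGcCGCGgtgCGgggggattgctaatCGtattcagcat
HOXD10: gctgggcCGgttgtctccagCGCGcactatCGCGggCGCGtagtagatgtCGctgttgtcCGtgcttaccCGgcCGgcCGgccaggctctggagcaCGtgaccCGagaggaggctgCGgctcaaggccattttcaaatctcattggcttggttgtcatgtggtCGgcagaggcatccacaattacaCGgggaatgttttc
HOXD11: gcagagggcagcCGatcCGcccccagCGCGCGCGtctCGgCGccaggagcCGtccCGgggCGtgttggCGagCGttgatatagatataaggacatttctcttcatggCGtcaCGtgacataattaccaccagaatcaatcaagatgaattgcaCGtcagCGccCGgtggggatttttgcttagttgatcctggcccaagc

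The window of HOXA10, the member with the highest level, held 21 CG, and those of HOXD11 and HOXD10, which had at most 3 counts in any EIR library, held 18 and 17. CG reads the same on both strands, so a single count covers both. Among the windows of all 19873 protein-coding genes, 31.8% held at least the 21 CG of HOXA10, 42.7% at least the 18 of HOXD11 and 46.4% at least the 17 of HOXD10. The median over the windows of the 38 members was 12 (range 3 to 27), against 15 over all protein-coding genes.

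TOV21G cells expressed most of the family, and the HOXA cluster dominated it. A mean of at least 10 normalized counts over the 5 libraries was reached by 31 of the 36 members, made up of 9 HOXA, 6 HOXB, 9 HOXC and 7 HOXD genes. A mean of at least 100 was reached by 9 HOXA, 2 HOXB, 7 HOXC and 0 HOXD genes. Per length, in RPKM (counts scaled to transcript length and to the library total), the highest mean level in each cluster was 69.3 for HOXA10, 12.5 for HOXB7, 12.8 for HOXC10 and 0.918 for HOXD8. HOXD genes were thus the weakest expressed of the 4 clusters by this measure, already in parental cells, where HOXD8 reached 2.93 RPKM against 56.9 RPKM for HOXA10. In parental cells the HOXA cluster held 69.8% of all normalized counts of the family, HOXC 16.3%, HOXB 8.22% and HOXD 5.68%.

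**Figure D1:**
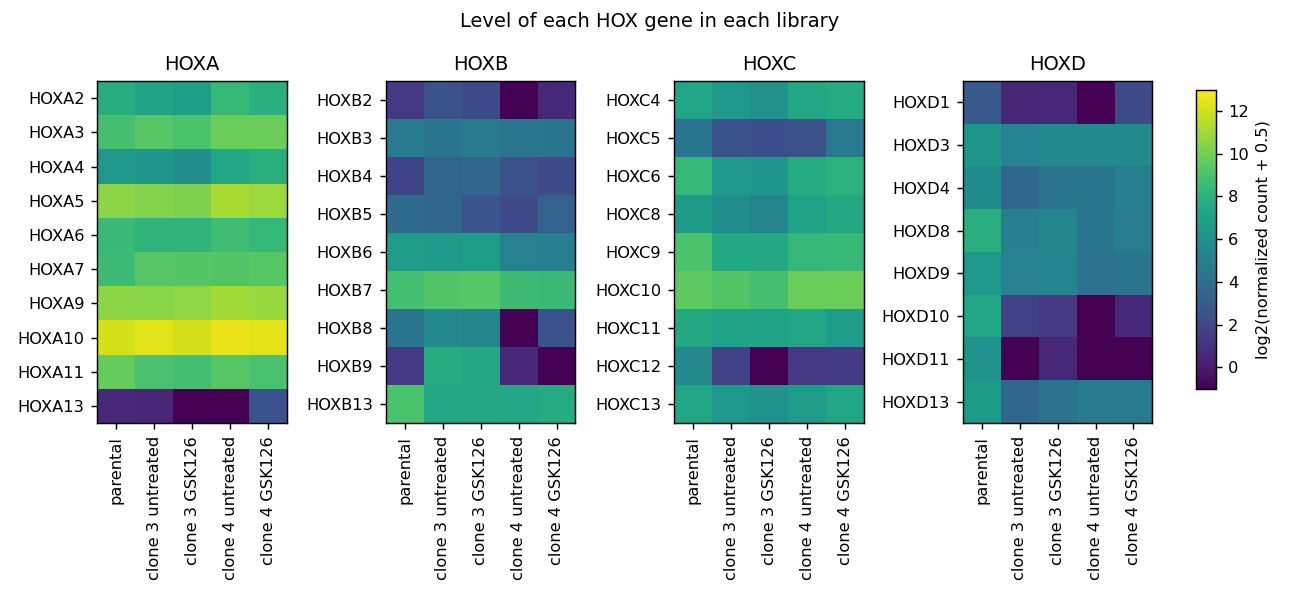
Each cell shows the level of 1 HOX gene (rows, in numerical order within each cluster) in 1 library (columns), as log2 of the normalized count plus 0.5. HOXA genes from HOXA2 to HOXA11 are high in every library, HOXA13 is near 0, HOXB9 is high only in the clone 3 libraries, and HOXD10 and HOXD11 are seen in the parental library.

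HOXA10, which specifies the uterine part of the Müllerian duct, was the strongest member in every library. It held 4343 normalized counts in parental cells, 5083 in untreated clone 3, 4362 in GSK126-treated clone 3, 6192 in untreated clone 4 and 5405 in GSK126-treated clone 4. In the same order, this was 44.8%, 49.97%, 47.0%, 45.3% and 44.9% of the summed counts of its cluster. HOXA9, assigned to the oviduct, held 1438 to 2130 normalized counts and HOXA11, assigned to the lower uterus, 453 to 818. HOXA13, the most posterior HOXA gene, had no more than 5 counts in any library, so the HOXA pattern of these cells ended at HOXA11. The remaining members below a mean of 10 normalized counts were HOXB2, HOXB4, HOXB5 and HOXD1, with 0 to 14 counts per library. HOXA9 and HOXA10 overlap on the same strand, as do several neighbours in the other clusters, and the count of each is an estimate wherever reads fall on shared sequence.

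The first comparison asked how the family differed between EIR and parental cells. Its summed level hardly moved, while the HOXD genes were far lower in EIR cells. The HOXD genes together held 789.6 normalized counts in parental cells, 135 in untreated clone 3, 174 in GSK126-treated clone 3, 138 in untreated clone 4 and 161 in GSK126-treated clone 4. All 4 EIR libraries lay far below the parental value and close to each other, and their mean of 152 ± 18.5 (SD, n = 4) was 19.3% of it. The HOXD share of the family's counts went from 5.68% to between 0.845% and 1.48%.

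The other clusters moved less, and differed between the clones. The HOXA sum was 9704 normalized counts in the parental library, the EIR mean was 11288 ± 1954 (SD, n = 4), and the lowest EIR library, at 9284, lay below the parental one. The HOXB sum was 1143 in parental cells, 1163 and 1204 in the clone 3 libraries, and 613 and 638 in the clone 4 libraries. The HOXC sum showed the reverse arrangement, with 2269 in parental cells, 1266 and 1053 in clone 3, and 1952 and 2166 in clone 4. Over all 36 members the EIR mean was 13954 ± 2114 (SD, n = 4) normalized counts against 13906 in parental cells. By position along the axis, the EIR mean was 127% of the parental value for the anterior members (paralogues 1 to 3), 101% for the central members (4 to 8) and 97.8% for the posterior members (9 to 13). The posterior sum was 9283 in parental cells, of which HOXA10 held 4343 and HOXA9 1523, so it mostly follows these genes. The clones differed for the anterior members, whose sum was 808 in parental cells, 855 and 719 in untreated and GSK126-treated clone 3 and 1311 and 1227 in clone 4.

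**Figure D2:**
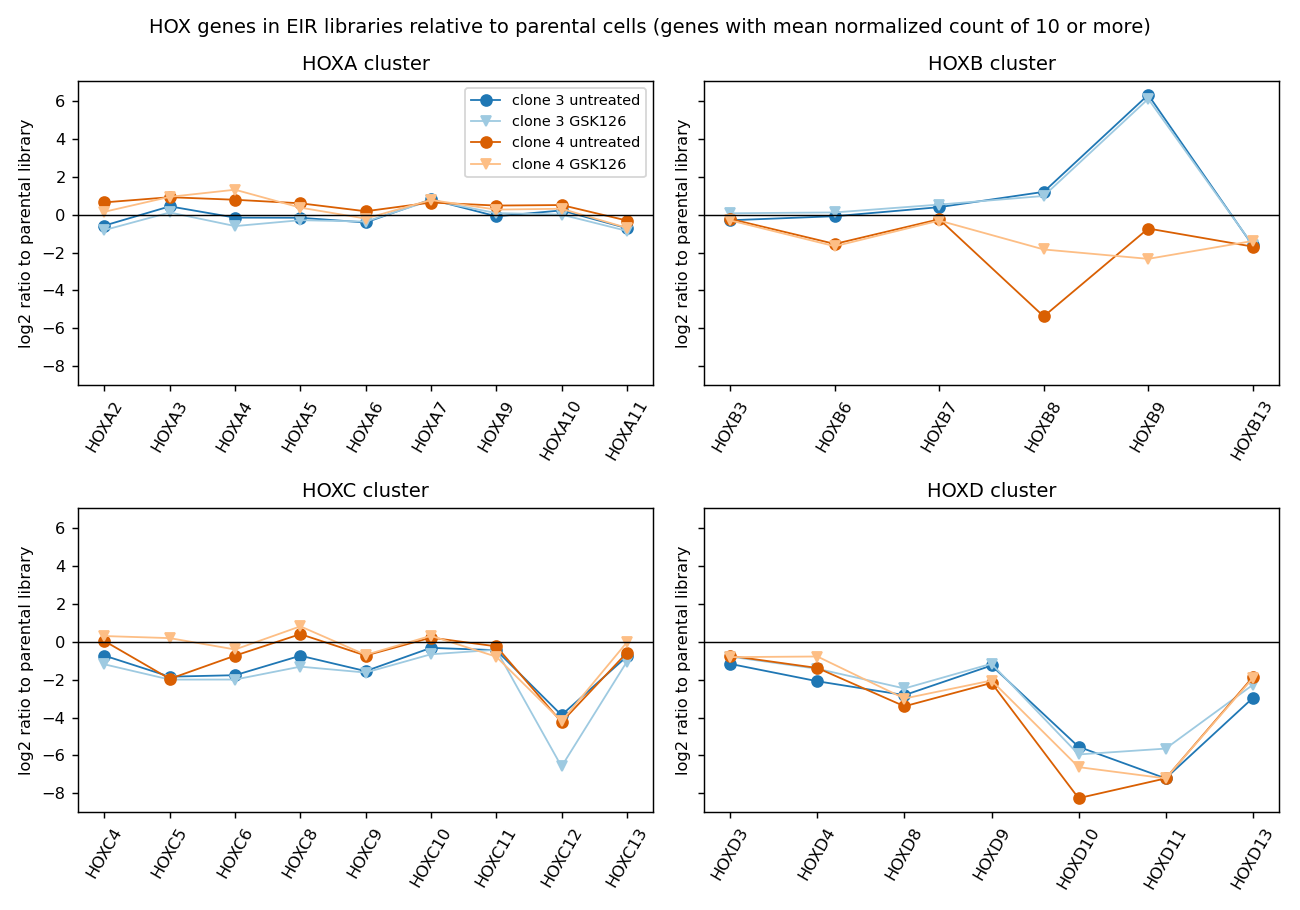
Each panel plots, for the genes of 1 cluster that average at least 10 normalized counts, the log2 ratio of each EIR library to the parental library, computed with 0.5 added to each normalized count. The HOXD genes lie below 0 in all 4 libraries with HOXD10 and HOXD11 lowest, and the clone 3 and clone 4 lines part at HOXB6 to HOXB9 and over most of the HOXC genes.

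With the Wald test of DESeq2, 7 members passed an adjusted p of 0.05 among the 31 that received one, 1 higher and 6 lower in EIR cells. The lower members were 19.4% of the 31, against 13.2% of all genes tested, and the 1 higher member was 3.23%, against 12.4% of all genes. The share of called members over the family as a whole was therefore near that of any gene, and the 6 lower ones were unevenly placed. They comprised 4 of the 7 HOXD genes with an adjusted p, 1 of 9 HOXC genes and 1 of 6 HOXB genes. By position, 5 of the 6 were posterior members and the other was the central member HOXD8. The median log2 difference was −0.85 over the 14 posterior members with an adjusted p, −0.18 over 13 central and −0.10 over 4 anterior ones. All 8 HOXD genes of the table had a fitted value below 0, and the median of the 7 with an adjusted p was −2.23 on the log2 scale, against −0.46 over the 31 members and 0.00 over all genes tested. Setting the members with at most 3 counts in every EIR library to that number of counts left the medians of HOXD and of the 31 members as they were. The quasi-likelihood test of edgeR called the same 6 members lower, against 5.32% of all genes.

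HOXD10 and HOXD11, neighbours that take part in limb and urogenital patterning, had the highest ratios of parental to EIR level among the members. HOXD10 (chr2:176973518-176984665) had 151 counts in parental cells and 3, 2, 0 and 1 in untreated clone 3, GSK126-treated clone 3, untreated clone 4 and GSK126-treated clone 4. HOXD11 (chr2:176968944-176974482) had 73 counts in parental cells, 1 in GSK126-treated clone 3 and 0 in the other 3 EIR libraries. Neither gene was expressed above the floor of 3 counts in any EIR library. After scaling for depth, the parental level of HOXD10 was 102 times the pooled EIR level (95% exact interval 45.7 to 282, for counting error only), and that of HOXD11 was 296 times (51.4 to 11833). The adjusted p of DESeq2 was 8.2e-09 for HOXD10 and 3.9e-05 for HOXD11. The annotated spans of the pair overlap on the plus strand, so reads may have been divided between them by estimation.

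HOXD8, a central member, and HOXD13, the most posterior, kept a measurable level in EIR cells. HOXD8 (chr2:176994422-176997423) held 231 normalized counts in parental cells, 32.4 and 41.5 in the clone 3 libraries and 21.4 and 28.6 in the clone 4 libraries. It fell by 2.90 ± 0.52 on the log2 scale (SE, DESeq2 adjusted p = 6.7e-07). HOXD13 (chr2:176957449-176960672), which is required for digit formation, held 97.7 normalized counts in parental cells, 12.0 and 19.8 in clone 3 and 26.4 and 25.4 in clone 4. It fell by 2.23 ± 0.67 on the log2 scale (SE, DESeq2 adjusted p = 0.0063), and this call was lost after summing to 1 sample per clone (adjusted p = 0.11). HOXD13 overlaps no other annotated gene, while HOXD8 and HOXD9 lie opposite the antisense gene HOXD-AS2, which held 48.3 normalized counts in the parental library against 55.0 ± 7.56 (SD, n = 4) in EIR cells.

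The other HOXD genes also lay below parental cells in each EIR library without passing the test in this comparison. HOXD9 held 88.6 normalized counts in parental cells, 37.0 and 39.5 in clone 3 and 19.3 and 21.2 in clone 4. HOXD3 held 83.6 against 45.7 ± 5.87 and HOXD4 56.4 against 22.0 ± 8.17 (SD, n = 4). The adjusted p of DESeq2 was 0.064 for HOXD9, 0.17 for HOXD3 and 0.18 for HOXD4. HOXD1, with 7 counts in parental cells and at most 4 in EIR cells, received no adjusted p.

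HOXB13 and HOXC12 were the posterior members outside the HOXD cluster that passed the test as lower. HOXC9 and HOXA11 also lay below parental cells in each EIR library without passing. Their log2 differences were −1.08 ± 0.48 and −0.63 ± 0.29 (SE, DESeq2 adjusted p = 0.085 and 0.098). HOXB13 (chr17:46802125-46806112), a gene required for prostate development that lies apart from the rest of the HOXB cluster, held 521 normalized counts in parental cells, 168 and 172 in clone 3 and 162 and 199 in clone 4. The EIR libraries were close together, and the gene fell by 1.57 ± 0.26 on the log2 scale (SE, DESeq2 adjusted p = 1.2e-07). HOXC12 (chr12:54348687-54352740) had 47 counts in parental cells, 3 and 0 in clone 3 and 2 and 2 in clone 4. Its parental level was 27.2 times the pooled EIR level (95% exact interval 12.2 to 71.3), with a DESeq2 adjusted p of 0.0040. Neither gene overlaps another in the annotation. The neighbours of HOXC12 were measured in every library, with HOXC11 at 182 normalized counts in parental cells against 133 ± 20.2 and HOXC13, which is needed for hair and nail growth, at 152 against 103 ± 32.8 (SD, n = 4), and neither passed the test.

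HOXA7 was the member that passed the test as higher. HOXA7 (chr7:27193335-27197555) held 381 normalized counts in parental cells, 667 and 643 in clone 3 and 595 and 653 in clone 4. The gene rose by 0.75 ± 0.20 on the log2 scale (SE, DESeq2 adjusted p = 0.0014). The call was lost with edgeR (adjusted p = 0.057) and with the libraries of each clone summed (DESeq2 adjusted p = 0.17). HOXA7 lies opposite the antisense gene HOXA-AS3, whose level did not pass the test, and the sources do not say if strand was used in counting.

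**Figure D3:**
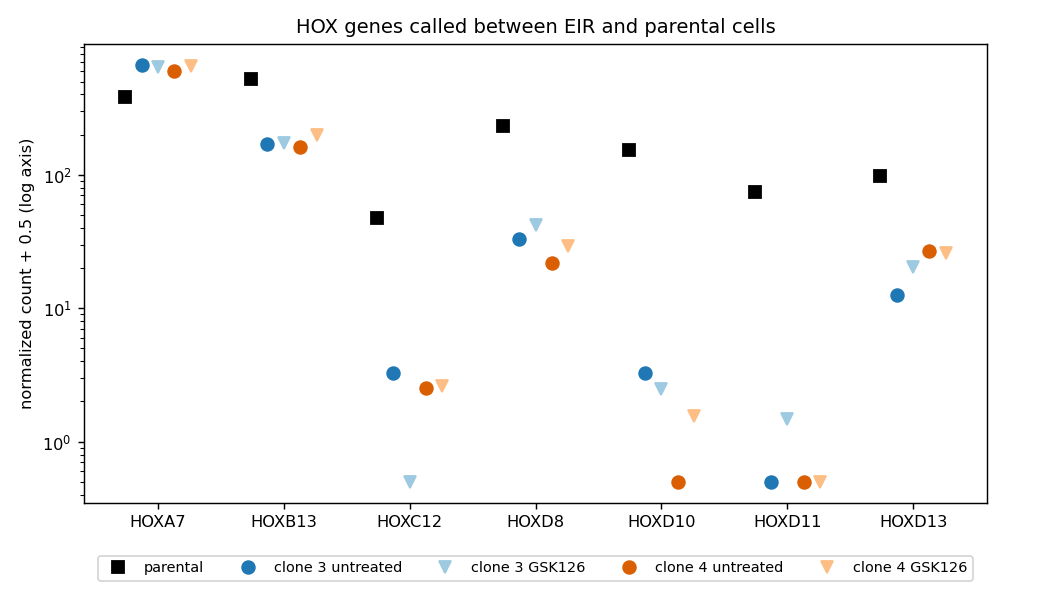
Normalized counts plus 0.5, on a log axis, of the 7 HOX genes called between EIR and parental cells, with 1 point per library. HOXA7 is above the parental square in all 4 EIR libraries, the other 6 genes are below it in all 4, and HOXC12, HOXD10 and HOXD11 lie near the bottom of the axis in EIR cells.

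GC content moved with the difference between EIR and parental libraries. The median GC content of the 36 members was 55.7%, against 48.3% over the 11377 genes that averaged at least 100 normalized counts. Among 3559 such genes of 50 to 60% GC, the median log2 ratio of EIR to parental was −0.28. After a correction for GC content, the same 7 members passed the test, and the log2 ratio averaged over EIR libraries was −6.39 for HOXD10, −2.78 for HOXD8, −1.23 for HOXB13 and 1.08 for HOXA7.

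The second comparison set clone 4 against clone 3, with treatment as a covariate, and here another part of the family differed. Of 30 members with an adjusted p, 6 were higher and 4 lower in clone 4. These were 20% and 13.3% of the members, against 3.3% and 6.52% of all genes tested. The higher genes were HOXA2, HOXA4, HOXA5, HOXC6, HOXC8 and HOXC10, and the 4 lower genes, HOXB6, HOXB7, HOXB8 and HOXB9, are adjacent in the HOXB cluster. Of the 5 HOXD genes with an adjusted p, 0 passed with DESeq2, 0 had an unadjusted p under 0.05 and 0 passed with edgeR. The median of the members was 0.33 on the log2 scale, with 0.99 for HOXC, 0.37 for HOXA and −1.03 for HOXB, against 0.00 over all genes tested. Of the 6 genes with a row on the clear cell carcinoma list, NAPSA and EPCAM also passed between the clones, both lower in clone 4. Their part in the HOX differences was not tested. Without the untreated clone 3 library 3 members passed, and without the GSK126-treated one HOXB9 alone did, in fits that had to drop the treatment covariate as well. Over the 4 fits that each left out 1 EIR library, log2 differences were −1.75 to −1.57 for HOXB6 and 0.83 to 1.33 for HOXA2. For these 10 members the normalized counts of the clones did not overlap. Leaving out 1 library could therefore not turn their direction, and the kept direction adds no support.

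HOXB9 (chr17:46698518-46703720), a posterior member that helps to pattern the rib cage, was the most unequal member between the clones. It had 218 and 176 counts in untreated and GSK126-treated clone 3, 1 and 0 in untreated and GSK126-treated clone 4, and 2 in the parental library. The clone 3 level was 363 times that of clone 4 (95% exact interval 64.8 to 14380) and 93.5 times that of parental cells (25.7 to 775), both after scaling for depth. The DESeq2 adjusted p between the clones was 3.8e-07. HOXB8 (chr17:46688739-46692654), next to it, had 51 and 41 counts in the clone 3 libraries, 0 and 5 in the clone 4 libraries, against 20 in the parental library, with a log2 difference of −4.51 ± 1.26 (SE, DESeq2 adjusted p = 0.0055). That size is uncertain, since leaving out 1 library at a time gave −7.88 to −3.07, and the call was lost without the untreated or the GSK126-treated clone 3 library (DESeq2 adjusted p = 0.26 and 0.14).

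HOXB7 and HOXB6 differed in the same direction by less. HOXB7 (chr17:46684594-46710934) held 598 and 657 normalized counts in untreated and GSK126-treated clone 3, 385 and 366 in clone 4, against 453 in the parental library, and was lower in clone 4 by a log2 difference of −0.75 ± 0.25 (SE, DESeq2 adjusted p = 0.036). HOXB6 (chr17:46673113-46682354) held 96.3 and 111 in clone 3, 34.6 and 31.7 in clone 4, against 102 in the parental library, with a log2 difference of −1.65 ± 0.57 (SE, DESeq2 adjusted p = 0.044), a call that total count scaling and the GC correction ended (DESeq2 adjusted p = 0.056 and 0.066). Parental cells thus lay near clone 3 for HOXB6, between the clones for HOXB7 and HOXB8, and near clone 4 for HOXB9. The annotated span of HOXB7 covers HOXB8 and HOXB9, so these counts depend on how reads were divided among them. The other HOXB genes with an adjusted p, HOXB3 and HOXB13 among them, did not pass between the clones, and HOXB3 held 21.2 to 27.7 normalized counts in all 5 libraries.

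Of the 8 HOXC genes with an adjusted p, 3 passed, each higher in clone 4 than in clone 3. HOXC6 held 96.3 and 82.0 normalized counts in untreated and GSK126-treated clone 3, 197 and 248 in clone 4, against 327 in the parental library, a log2 difference between the clones of 1.31 ± 0.40. HOXC8, which patterns the thorax, held 59.3 and 39.5 in clone 3, 131 and 175 in clone 4, against 98.7 in the parental library, a log2 difference of 1.63 ± 0.50. HOXC10, which acts in hindlimb motor neurons, held 602 and 475 in clone 3, 875 and 935 in clone 4, against 749 in the parental library, a log2 difference of 0.75 ± 0.24. The DESeq2 adjusted p was 0.016 for HOXC6, 0.015 for HOXC8 and 0.020 for HOXC10. HOXC9 was arranged alike, with 182 and 173 in clone 3, 322 and 331 in clone 4, against 533 in the parental library, but did not pass between the clones with DESeq2. HOXC4 held 82.3 in clone 3 and 179 in clone 4 on average against 158 in parental cells, and HOXC5 ranged from 4.94 to 24.3.

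Of the 9 HOXA genes with an adjusted p, 3 passed, and these were also higher in clone 4. HOXA2, which patterns the branchial arches, held 143 and 122 normalized counts in untreated and GSK126-treated clone 3, 336 and 238 in clone 4, against 214 in the parental library. HOXA4 held 79.6 and 58.3 in clone 3, 154 and 222 in clone 4, against 88.6 in the parental library. HOXA5, which is required for lung development, held 1339 and 1224 in clone 3, 2274 and 1939 in clone 4, against 1496 in the parental library. The log2 difference of clone 4 over clone 3 was 1.09 ± 0.35 for HOXA2, 1.43 ± 0.45 for HOXA4 and 0.71 ± 0.19 for HOXA5 (SE), with DESeq2 adjusted p of 0.022, 0.021 and 0.0029. HOXA7 had a fitted log2 difference of −0.08 and did not pass. HOXA6 and HOXA9 did not pass either, with 280 and 366 normalized counts for HOXA6 and 1529 and 1983 for HOXA9 as the means of clone 3 and clone 4.

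**Figure D4:**
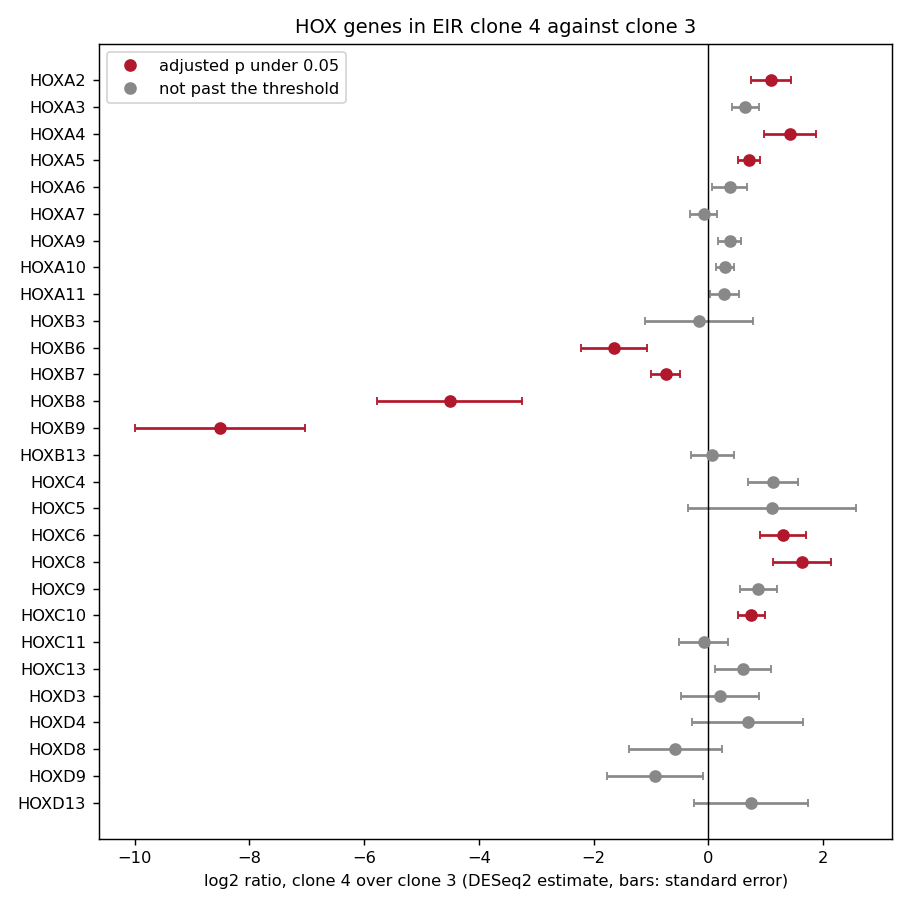
Points give the DESeq2 log2 difference of clone 4 over clone 3 for each HOX gene with an adjusted p and a mean of at least 10 normalized counts, and bars its standard error. Red points passed an adjusted p of 0.05, and they fall to the left for HOXB6 to HOXB9 and to the right for 3 HOXA and 3 HOXC genes. The positions of HOXB9 and HOXB8 are fitted against 0 to 5 counts per clone 4 library, so their distance from 0 is uncertain.

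Each clone was then set against the parental library in 1 fit, and both differences share that library. In clone 3, 2 of 32 members were higher and 9 lower (6.25% and 28.1%), against 14.7% and 14.5% of all genes tested. In clone 4, 3 of 31 were higher and 7 lower (9.68% and 22.6%), against 14.7% and 18.3% of all genes. HOXA7 was among the higher genes, and HOXB13, HOXC12, HOXD8, HOXD10 and HOXD11 among the lower genes, in both. The other calls in clone 3 were HOXB9, higher, and HOXA11, HOXC6, HOXC9 and HOXD13, lower. The other calls in clone 4 were HOXA3 and HOXA5, higher, and HOXB6 and HOXD9, lower. The HOXA7 call was lost in both clones with treatment as covariate (DESeq2 adjusted p = 0.090 in clone 3 and 0.13 in clone 4). A call in 1 clone alone is not a difference between the clones, which only the comparison above tests.

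The genes called in 1 clone differed in size and in how they stood up to the processing. HOXC6 was lower in clone 3 than in parental cells by a log2 difference of −1.88 ± 0.40 (SE, DESeq2 adjusted p = 2.5e-05), and HOXC9 by −1.58 ± 0.31 (SE, DESeq2 adjusted p = 5.3e-06). HOXA3, which is needed for the thymus and parathyroid, held 475 normalized counts in parental cells, 646 and 517 in untreated and GSK126-treated clone 3 and 903 and 915 in clone 4, and was higher in clone 4 by 0.94 ± 0.25 (SE, DESeq2 adjusted p = 0.0012). HOXA11 held 818 in parental cells, 500 and 453 in clone 3 and 661 and 506 in clone 4, with a log2 difference of −0.78 ± 0.27 in clone 3 (SE, DESeq2 adjusted p = 0.016). The HOXA11 call was lost after the GC correction (DESeq2 adjusted p = 0.15). HOXD9 was lower in clone 4 by −2.13 ± 0.77 (SE, DESeq2 adjusted p = 0.020), which the GC correction also ended (DESeq2 adjusted p = 0.12), as it did for HOXB6 (0.099) and HOXC12 (0.079) in clone 4. HOXA5 was higher in clone 4 by 0.49 ± 0.20 (SE, DESeq2 adjusted p = 0.045), a call lost with TMM factors (DESeq2 adjusted p = 0.057), with treatment as covariate (0.092) and with edgeR (adjusted p = 0.055).

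The split between higher and lower calls moved with the scaling in some of these comparisons. After the GC correction, clone 4 had 6 members higher and 4 lower than parental cells, clone 3 had 4 higher and 8 lower, and clone 4 had 8 higher and 3 lower than clone 3. Scaling to total counts gave 5 higher and 7 lower in clone 4 against parental cells.

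A further question was whether GSK126 changed HOX expression in cells that had become resistant to it. No member passed the DESeq2 test between GSK126-treated and untreated EIR cells, 0 of 36, against 0.00335% of all genes tested (1 gene of 29847). At an unadjusted p under 0.05 the number was also 0, and edgeR called 0 members, with 0 at an unadjusted p under 0.05. The clone number pairs the treated and untreated libraries, and with it as a block 0 members passed. The precision differed between members. The log2 difference of treated over untreated cells was −0.22 ± 0.24 for HOXA10, 0.03 ± 0.24 for HOXA7, 0.05 ± 0.42 for HOXB7, −0.08 ± 0.42 for HOXC10, 0.15 ± 0.35 for HOXB13 and 0.37 ± 0.76 for HOXD8 (SE). With the clone number as block it was −0.22 ± 0.16 for HOXA10 and 0.38 ± 0.81 for HOXD8 (SE).

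All 8 HOXD genes had a fitted value above 0, with a median of 0.30, and none passed. The median was 0.04 over the 36 members and 0.03 over all genes tested. Within the clones, the log2 ratio of treated to untreated was below 0 for HOXD10 in clone 3 (−0.40). In clone 4 it was below 0 for HOXD3 and HOXD13 (−0.07 and −0.06). HOXD1, HOXD10 and HOXD11 had at most 4 counts in any EIR library, and their fitted values had an SE of 3.29 to 5.00. The HOXD sum was 135 and 174 normalized counts in untreated and GSK126-treated clone 3, and 138 and 161 in clone 4. Parental cells held 789.6. Treated EIR cells therefore stayed far below parental cells for this cluster. Within clone 3, the log2 ratio of treated to untreated ranged from −2.71 for HOXC12 (3 counts against 0) to 1.57 for HOXD11 (0 against 1), with a median of −0.13 over the 31 members that average at least 10 normalized counts. Within clone 4 it ranged from −1.60 for HOXB9 (1 against 0) to 3.53 for HOXB8 (0 against 5), with a median of 0.04. The extremes were thus set by genes with next to no counts. The mean of 10 was taken with the parental library included, and HOXC12, HOXD10 and HOXD11 reached it only through that library. With GSK126, 4 members were higher and 5 lower in both clones.

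**Figure D5:**
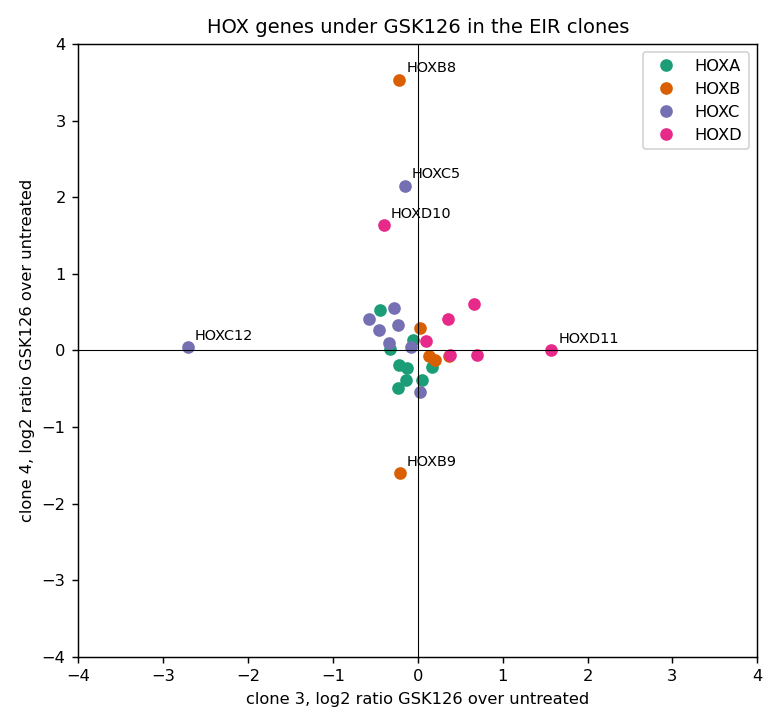
Each point is 1 HOX gene that averages at least 10 normalized counts, with the log2 ratio of the GSK126-treated to the untreated library (0.5 added to each normalized count) in clone 3 on the horizontal axis and in clone 4 on the vertical axis. Most genes lie near the origin, and the labelled genes far from it have few counts in the libraries compared. HOXC12, HOXD10 and HOXD11 reach the mean of 10 only through the parental library.

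Non-coding RNAs transcribed within the clusters were examined next. Of 18 such genes on the list, 15 had a row and 11 received an adjusted p between EIR and parental cells, of which 1 passed, with a median of −0.60. It was HOXA10-AS, antisense to HOXA9 and HOXA10, which held 72.5 normalized counts in parental cells, 149 and 179 in untreated and GSK126-treated clone 3 and 183 and 182 in clone 4. It rose by 1.26 ± 0.33 on the log2 scale (SE, DESeq2 adjusted p = 0.0016), while edgeR called 0 of the 15 and 3 had an unadjusted p under 0.05 with DESeq2. Over all genes tested with DESeq2, 12.4% were higher and 13.2% lower in EIR cells. HOTAIR, a HOXC transcript described as a guide of PRC2 to the HOXD cluster, held 182 in parental cells, 65.7 and 62.3 in clone 3 and 112 and 85.7 in clone 4. It passed in clone 3 against parental cells (log2 difference −1.51 ± 0.51, DESeq2 adjusted p = 0.013) and not in the comparison of all EIR libraries (adjusted p = 0.060). HAGLR, antisense to HOXD1 and HOXD3, held 49.4 in the parental library against 12.3 ± 4.33 in EIR cells (SD, n = 4), with a DESeq2 adjusted p of 0.058. HOTAIRM1 and HOXA-AS3 were higher in clone 4 than in clone 3 by log2 differences of 0.77 ± 0.27 and 0.80 ± 0.27 (SE, DESeq2 adjusted p = 0.044 and 0.036). HOXA-AS2 and HOXC-AS3 did not pass in any of the 5 comparisons, and held 367 to 701 and 109 to 177 normalized counts.

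HOX proteins bind DNA with cofactors of the PBX and MEIS families, and MEIS2 was the cofactor gene that rose in EIR cells. Of 9 cofactor genes, 8 had a row, of which 1 was higher and 1 lower in EIR cells, with a median of −0.39. Over all genes tested, 12.4% were higher and 13.2% lower. MEIS2 held 34.2 normalized counts in parental cells, 433 and 536 in untreated and GSK126-treated clone 3 and 497 and 549 in clone 4, and it rose by 3.88 ± 0.34 on the log2 scale (SE, DESeq2 adjusted p = 1.1e-26). PBX2 fell by 0.90 ± 0.18 (SE, DESeq2 adjusted p = 2.2e-05), from 1820 to 976 ± 66.9 (SD, n = 4). PBX3 held 794 in the parental library and 266 to 663 in the others, and MEIS1 and PKNOX1 held 184 to 255 and 545 to 716 in the 5 libraries, without passing between EIR and parental cells. MEIS3 was lower in clone 4 than in clone 3 by a log2 difference of −1.15 ± 0.31 (SE, DESeq2 adjusted p = 0.0041).

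The regulators of the clusters were read from 3 lists. Among all genes tested between EIR and parental cells, 12.4% were higher and 13.2% lower. Of 11 PRC2 genes, 2 passed, both lower in EIR cells, with a median of 0.09. EZH1, the alternative catalytic subunit, fell by 1.01 ± 0.19 on the log2 scale, from 1176 normalized counts to 584 ± 34.6 (SD, n = 4), and PHF1, an accessory subunit, fell by 0.91 ± 0.32 (SE, DESeq2 adjusted p = 3.1e-06 and 0.020), of which edgeR called EZH1. EZH2 itself held 2567 to 3296 over the 5 libraries and did not pass. Of 9 PRC1 genes, 8 had a row, with CBX2 lower by −1.12 ± 0.33 and RNF2 higher by 0.58 ± 0.19 (SE, DESeq2 adjusted p = 0.0051 and 0.013) and a median of −0.12, and edgeR called 0 of these 8, where 4 had an unadjusted p under 0.05 with DESeq2. Of 10 genes that activate HOX expression, such as the KMT2 methyltransferases and MEN1, 0 passed between EIR and parental cells with DESeq2. Of them 0 had an unadjusted p under 0.05 and 0 passed with edgeR, with a median of 0.00. With clone 3 set against parental cells, 0 PRC2 genes were higher and 2 lower, and 0 activators were higher and 1 lower. In clone 4, 3 PRC2 genes were higher and 1 lower, and 1 activator was higher and 0 lower. Among all genes tested, 14.7% were higher and 14.5% lower in clone 3, and 14.7% and 18.3% in clone 4. Between the clones, 1 of the 11 PRC2 genes, 0 of the 8 PRC1 genes and 1 of the 10 activators passed with DESeq2. Both were higher in clone 4, where 3.3% of all genes tested were higher and 6.52% lower. The medians were 0.36, −0.01 and 0.48, and edgeR called 1, 0 and 0 genes of these lists. Of 8 ParaHox and EVX genes, 3 had a row and none received an adjusted p between EIR and parental cells.

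The genes that border the clusters were examined for differences of the same kind. Of 16 bordering protein-coding genes, 15 had a row and 13 an adjusted p, of which 2 passed, both lower in EIR cells, HIBADH beside HOXA (log2 difference −0.95 ± 0.20, DESeq2 adjusted p = 4.2e-05) and CALCOCO1 beside HOXC (−0.83 ± 0.21, DESeq2 adjusted p = 5.8e-04). The median of the 13 was −0.15, and 13.2% of all genes tested were lower. Around HOXD, EVX2, 8759 bases from the cluster, had at most 2.03 normalized counts in any library. LNPK, 89882 bases away on the same side, held 1788 in the parental library against 3096 ± 686 in EIR cells (SD, n = 4), and MTX2, 78488 bases away on the other side, held 2219 and 2004 ± 111. Neither passed between EIR and parental cells, with a log2 difference of 0.79 ± 0.33 for LNPK and −0.15 ± 0.17 for MTX2 (SE, DESeq2 adjusted p = 0.060 and 0.57). LNPK passed, higher, in each clone against parental cells (log2 difference 0.50 ± 0.19 in clone 3 and 1.04 ± 0.19 in clone 4, DESeq2 adjusted p = 0.031 and 6.2e-07). SKAP2, beside HOXA, was lower in clone 3 than in parental cells (−1.22 ± 0.18, DESeq2 adjusted p = 7.9e-10). Of the 13 bordering genes, 1 was higher and 5 lower in clone 3, against 14.7% and 14.5% of all genes tested. In clone 4, 3 were higher and 3 lower, against 14.7% and 18.3%. Between the clones 3 of the 13 bordering genes passed, LNPK and SKAP2 higher in clone 4 (0.54 ± 0.18 and 0.89 ± 0.18, DESeq2 adjusted p = 0.028 and 3.8e-05) and SNX10 lower (−1.08 ± 0.23, DESeq2 adjusted p = 6.0e-05). The summed HOXD level of EIR against parental cells differed by −2.38 ± 0.17 (SD, n = 4) on the log2 scale.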

How the data were processed

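RNA-seq was performed on total RNA of parental TOV21G cells (1 library) and of EIR clones 3 and 4, untreated and GSK126-treated (4 libraries). Per the labels and the methods of the study, the authors aligned reads to hg19 with Bowtie2 and estimated counts per gene with RSEM. The deposited values are these estimated counts, not normalized, and all were whole numbers (0 were not), so the authors had rounded them. Reads shared by overlapping genes are divided by estimation, and use of the strand in counting is not stated. The 5 columns were matched to libraries by name, with the column that carries no clone tag taken as parental.

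The HOX members and all gene lists were chosen with earlier results of these data known. Members with a value past the threshold in any comparison, and the highest member of each cluster per length, are named with every library (22 genes), others that average at least 10 normalized counts more briefly. A few genes and sequences are not reported here. Gene names, coordinates and transcript lengths came from GENCODE release 44 as lifted to GRCh37 (hg19), and 29203 of 30476 identifiers matched (95.8%). Sequences were read from GRCh37.

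All genes were fitted with DESeq2 1.42.0 (R 4.3.3), the tool of the study, by its Wald test (two-sided) on counts scaled with median-of-ratios factors. A gene was called at a p under 0.05 after Benjamini-Hochberg adjustment over all genes that received one. EIR was compared with parental cells over 5 libraries, GSK126-treated with untreated cells and clone 4 with clone 3 (treatment as covariate) over the 4 EIR libraries, and each clone with parental cells in a fit by cell line. In that last fit treatment counts as spread, and libraries of the same clone do not stand for separate clones. Normalized counts are counts divided by size factors. Ratios per library used a pseudocount of 0.5, and RPKM used the length of the canonical transcript. Groups with at most 3 counts in every library were described by a ratio of counts with a 95% exact interval, which covers counting error only. Clone numbers pair the treated and untreated libraries because both came from the same clone, and same-clone deviations correlated at 0.862 over 11564 genes. Alternatives were edgeR 4.0.16, TMM and total count scaling, a filter of at least 10 counts in at least 2 libraries, a GC correction (20 bins), leaving out each EIR library, summing the libraries of a clone, the treatment covariate and the clone number as replicate block. The fits were tested on simulated data.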

Additional observations from a re-analysis of the deposited data

Results flagged for a closer look

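The log2 difference between clone 4 and clone 3 passed the DESeq2 test for 10 members, that is, their difference from the shared parental library differed between the clones. It was 1.09 for HOXA2, 1.43 for HOXA4, 0.71 for HOXA5, 1.31 for HOXC6, 1.63 for HOXC8 and 0.75 for HOXC10. It was −1.65 for HOXB6, −0.75 for HOXB7, −4.51 for HOXB8 and −8.52 for HOXB9, where the values for HOXB8 and HOXB9 are fits against clone 4 counts of 0 and 5, and of 1 and 0, and are no measure of size. Each clone is a single clone with 1 untreated and 1 treated library.

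Among the 4 EIR libraries, the HOXD11 level of GSK126-treated clone 3 stood apart, at 0.988 normalized counts (1 count) where the other 3 libraries were at 0. Where the other libraries are all at 0, any count above 0 meets Dixon's criterion, so the flag says nothing about chance here. A single count lies under the floor of 3 counts.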

How the results depend on the processing

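Of 38 differences of single members past the threshold, 18 held in every alternative run. Over 369 values under alternatives, 307 kept direction and call, 62 kept the direction and lost the call, and 0 turned around. The call of 7 members between EIR and parental cells dropped to 4 with at least 10 counts required in at least 2 libraries, since HOXC12, HOXD10 and HOXD11 are then no longer tested. With treatment as covariate, 5 members passed in clone 4 against parental cells, where the cause was not tested. A GC correction of the cluster sums, chosen after seeing the data, moved the mean log2 ratio of EIR to parental from 0.20 to 0.49 for HOXA and from −2.38 to −2.11 for HOXD. Leaving out 1 EIR library at a time gave 7 to 8 members between EIR and parental cells, 0 to 0 between treated and untreated cells, 1 to 10 between the clones, 7 to 11 in clone 3 and 5 to 8 in clone 4 against parental cells. The number moved by over 1.5 times between the clones without untreated clone 3 (3) or GSK126-treated clone 3 (1), in clone 3 without its GSK126-treated library (7), and in clone 4 without untreated clone 3 (5), untreated clone 4 (6) or GSK126-treated clone 3 (5). Between the clones, these fits also dropped the treatment covariate. Where this left a line with 1 library, that library is assumed to vary like the others.

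The replicate block by clone number gave 0 members between treated and untreated cells, and 0 with the GC correction as well, so it changed no call. Depth limits the genes near 0: HOXC12, HOXD10 and HOXD11 rest on at most 3 counts per EIR library, and the single parental library leaves its own spread unmeasured.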
